A study of Mus musculus with 2 samples.

Results

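The genes of the microRNAs miR-218 and miR-138 are 4 in number: Mir218-1, Mir218-2, Mir138-1 and Mir138-2. They were taken by their GENCODE M21 names from the 2202 microRNA genes counted in mouse heart, and all 4 had at least 10 counts in both libraries, as did 340 genes in all. The libraries came from hearts of male B6CASTF1/J mice aged 10 days. These mice are F1 hybrids of laboratory C57BL/6J and wild-derived CAST animals. There were 2 libraries of total RNA restricted to short fragments, replicates 2 and 1 of 1 group, with no treatment and no other tissue. The labels list a separate biological sample for each library and a shared donor identifier, and the spread between them may be biological or technical. A comparison of these libraries is therefore one of 2 libraries, not of conditions.

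MicroRNAs are cut from hairpin transcripts into short strands, one from the 5p arm and one from the 3p arm, and they repress messenger RNAs that pair with the seed, bases 2 to 8 of the strand. The genes Mir218-1 and Mir218-2 lie inside genes for Slit proteins, secreted ligands of the Robo receptors that guide migrating cells and axons, and in zebrafish miR-218 represses Robo messages during formation of the heart tube. In zebrafish, miR-138 is needed for the ventricle to mature and keeps genes of the atrioventricular canal out of it. Both microRNAs are also known from neurons, miR-218 from mouse motor neurons and miR-138 from the dendrites of rat neurons.

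The strands are shown with the seed in capitals, because the copies of each microRNA share the 5p strand and differ in the 3p strand. They are RefSeq sequences on GRCm38.p6, the assembly also called mm10, and all 4 genes lie on the plus strand.
mmu-miR-218-5p (Mir218-1 and Mir218-2): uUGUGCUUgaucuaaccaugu
mmu-miR-218-1-3p (Mir218-1): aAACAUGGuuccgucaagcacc
mmu-miR-218-2-3p (Mir218-2): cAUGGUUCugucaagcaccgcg
mmu-miR-138-5p (Mir138-1 and Mir138-2): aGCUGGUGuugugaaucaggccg
mmu-miR-138-1-3p (Mir138-1): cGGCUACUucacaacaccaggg
mmu-miR-138-2-3p (Mir138-2): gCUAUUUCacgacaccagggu

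The 3p strands of the miR-218 copies overlap over 19 bases with 1 difference, C12U, where the position is counted from the 5′ end of mmu-miR-218-1-3p and its base comes first. Their ends are offset by 3 bases, so their seeds differ. The 3p strands of the miR-138 copies overlap over 20 bases with 2 differences, C7U and A13G, counted likewise on mmu-miR-138-1-3p. In the RefSeq table the seed of mmu-miR-218-5p was also held by mmu-miR-7002-3p, and that of mmu-miR-138-5p by no other listed microRNA.

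The whole hairpins follow, with capitals for every stretch of at least 20 bases that another listed hairpin holds too, since a short read from such a stretch fits both copies.
Mir218-1, chr5:48223942-48224051: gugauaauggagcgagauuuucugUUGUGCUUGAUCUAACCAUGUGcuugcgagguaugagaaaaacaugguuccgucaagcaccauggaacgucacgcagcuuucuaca
Mir218-2, chr11:35616816-35616925: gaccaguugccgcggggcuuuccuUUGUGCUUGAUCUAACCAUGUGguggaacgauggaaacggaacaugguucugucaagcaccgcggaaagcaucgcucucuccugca
Mir138-1, chr9:122682876-122682974: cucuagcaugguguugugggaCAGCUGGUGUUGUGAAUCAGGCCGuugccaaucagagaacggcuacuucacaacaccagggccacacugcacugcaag
Mir138-2, chr8:94324311-94324381: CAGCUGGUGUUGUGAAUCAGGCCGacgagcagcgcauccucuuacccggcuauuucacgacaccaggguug

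In each hairpin the shared stretch is the 5p strand and 1 further base, 22 bases in the miR-218 pair and 24 bases in the miR-138 pair. A read of mmu-miR-218-5p first differs between the copies when it begins 1 base before the strand or runs 2 bases beyond it. A read of mmu-miR-138-5p first differs when it runs 1 base beyond the strand. Outside this stretch the copies part: aligned end to end, the miR-218 hairpins are identical in 70.9% of aligned columns and the miR-138 hairpins in 49.5%. No member shares 20 bases with any listed hairpin other than its own copy.

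**Figure D1:**
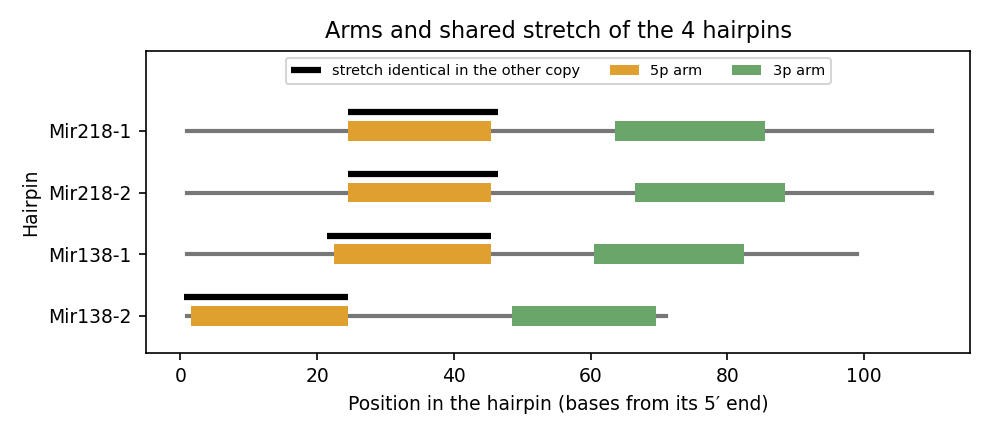
Map of the 4 hairpins, with the position in bases from the 5′ end on the horizontal axis and 1 hairpin per line. Boxes mark the 5p and 3p arms and the black bar marks the stretch that is identical in the other copy of the pair (22 bases for miR-218, 24 for miR-138); the bar covers the 5p arm in every hairpin and the 3p arm in none.

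The deposited tables count reads per gene and not per arm, and they hold reads with several mapping positions in an entry of their own, with no gene. Such reads made up 48.1% of the replicate 2 library and 36.8% of the replicate 1 library. The counts below are taken to be of reads placed at 1 position. No source used here says how the counter treated reads that fit both copies. How many reads of the shared 5p strands the counts leave out was not tested. No read of any member lay on the opposite strand in either library.

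The surroundings of the 4 genes differ. In GENCODE M21, Mir218-1 (ENSMUSG00000065603.1) lies in an intron of Slit2 and Mir218-2 (ENSMUSG00000065583.1) in an intron of Slit3, each on the strand of its host. Mir138-1 (ENSMUSG00000065414.1) overlaps an exon of the transcribed pseudogene Gm47135, and its nearest protein-coding gene is Topaz1, 64372 bases away. Mir138-2 (ENSMUSG00000065512.3) overlaps an exon of the long non-coding RNA gene C78859, 4820 bases from Slc12a3. The 4 genes are thus on 4 chromosomes, and no pair shares an annotated host.

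By the counts assigned to each gene, the miR-138 genes had the higher levels and the miR-218 genes the lower ones, in both libraries. Levels are in CPM, the counts per 1000000 counts of all microRNA genes, whose totals were 6305782 in replicate 2 and 3748432 in replicate 1. Intervals are exact Clopper-Pearson 95% intervals; they hold counting error alone, and reads copied by PCR are not separate molecules. A count was not divided by length, since a read spans a whole microRNA strand.

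Mir138-1 had 147 counts in replicate 2, or 23.3 CPM (interval 19.7 to 27.4), against 292 counts in replicate 1, or 77.9 CPM (interval 69.2 to 87.4). Mir138-2 had 166 counts in replicate 2, or 26.3 CPM (interval 22.5 to 30.6), against 191 counts in replicate 1, or 50.95 CPM (interval 43.98 to 58.7). By assigned counts, both miR-138 genes were thus low in replicate 2 and high in replicate 1, with intervals that did not overlap. Their means were 50.6 ± 38.6 CPM for Mir138-1 and 38.6 ± 17.4 CPM for Mir138-2 (SD, n = 2).

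Mir218-1 had 64 counts in replicate 2, or 10.1 CPM (interval 7.82 to 12.96), against 14 counts in replicate 1, or 3.73 CPM (interval 2.04 to 6.27). Mir218-2 had 53 counts in replicate 2, or 8.40 CPM (interval 6.296 to 10.99), against 31 counts in replicate 1, or 8.27 CPM (interval 5.62 to 11.7). By assigned counts, Mir218-1 was thus high in replicate 2 and low in replicate 1, whereas the intervals of Mir218-2 overlapped almost fully. Their means were 6.94 ± 4.54 CPM for Mir218-1 and 8.34 ± 0.0954 CPM for Mir218-2 (SD, n = 2).

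All these values lay above the limit that a count of 0 allows, 3 counts, which was 0.476 CPM in replicate 2 and 0.8003 CPM in replicate 1. In order of the means, Mir138-1 came before Mir138-2, then Mir218-2 and Mir218-1. Neighbours within a family did not keep this order in both libraries: Mir138-2 and Mir218-1 had the higher counts in replicate 2, and Mir138-1 and Mir218-2 in replicate 1. In replicate 2 the intervals of the copies overlapped in both families, and the order there lies within counting error. The step between the families held in each library, with every miR-138 value at least 2.30-fold above every miR-218 value.

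**Figure D2:**
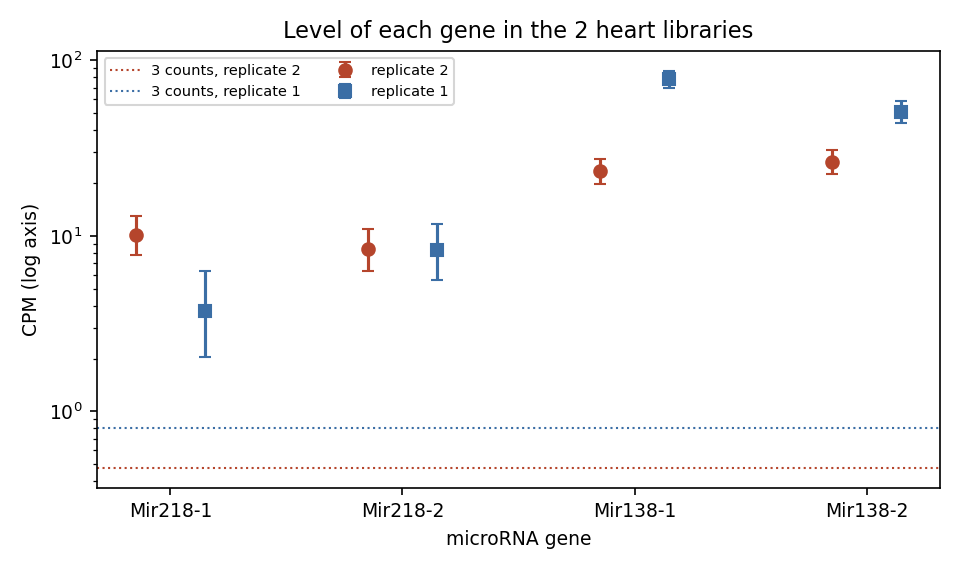
CPM of the 4 genes on a log axis, with 1 point per library (circles for replicate 2, squares for replicate 1), exact 95% intervals as bars and the level of 3 counts as dotted lines. The miR-138 genes sit between 23.3 and 77.9 CPM and the miR-218 genes between 3.73 and 10.1 CPM, and the order of the libraries is opposite for Mir218-1 and the miR-138 genes.

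Among the 340 genes that passed the filter, Mir138-1 stood at percentile 45.0 by mean level and Mir138-2 at percentile 40.9. Mir218-2 stood at percentile 19.1 and Mir218-1 at percentile 16.5. Together the 4 genes held 430 counts in replicate 2 (0.00682% of the counts of all microRNA genes) and 528 in replicate 1 (0.0141%). These ranks are of reads that could be assigned to 1 gene and may not give the rank of the microRNAs in the tissue.

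Between the libraries the summed counts of the families differed in opposite directions. Reads with several mapping positions made up 48.1% of the replicate 2 library and 36.8% of the replicate 1 library. Whether a member's reads were equally assignable in both libraries was not tested. The ratios below are of assigned counts and may not give the differences in level in the tissue. The samples are whole tissue, so fewer cells of a type and less RNA per cell cannot be told apart. A two-sided exact binomial test asked whether a gene's counts split as the TMM-adjusted sizes of the libraries do; it knows counting error only, and its p-values were adjusted by Benjamini-Hochberg over all 340 genes. At an adjusted p under 0.05 the test called 71.2% of all genes tested, 35.0% higher and 36.2% lower in replicate 2. A call is therefore common in this pair of libraries, and the 3 calls among the 4 members are near that background.

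Mir138-1 was lower in replicate 2, with a log2 ratio of -1.56 (exact 95% interval -1.86 to -1.28) and an adjusted p of 2.83e-28, or 2.96-fold. Mir138-2 was lower as well, with a log2 ratio of -0.78 (exact 95% interval -1.09 to -0.47) and an adjusted p of 7.03e-07. Over both genes the log2 ratio of the summed counts was -1.20 (exact 95% interval -1.41 to -0.996). The median log2 ratio of all genes tested was -0.02, so both miR-138 genes lay below the middle of the libraries.

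Mir218-1 was higher in replicate 2, with a log2 ratio of 1.59 (exact 95% interval 0.76 to 2.56) and an adjusted p of 7.41e-05. Mir218-2, its copy in Slit3, did not pass the exact test (log2 ratio 0.19, interval -0.47 to 0.88, adjusted p = 0.634). That interval still allows a difference of either sign. Over both genes the log2 ratio of the summed counts was 0.80 (exact 95% interval 0.29 to 1.33).

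**Figure D3:**
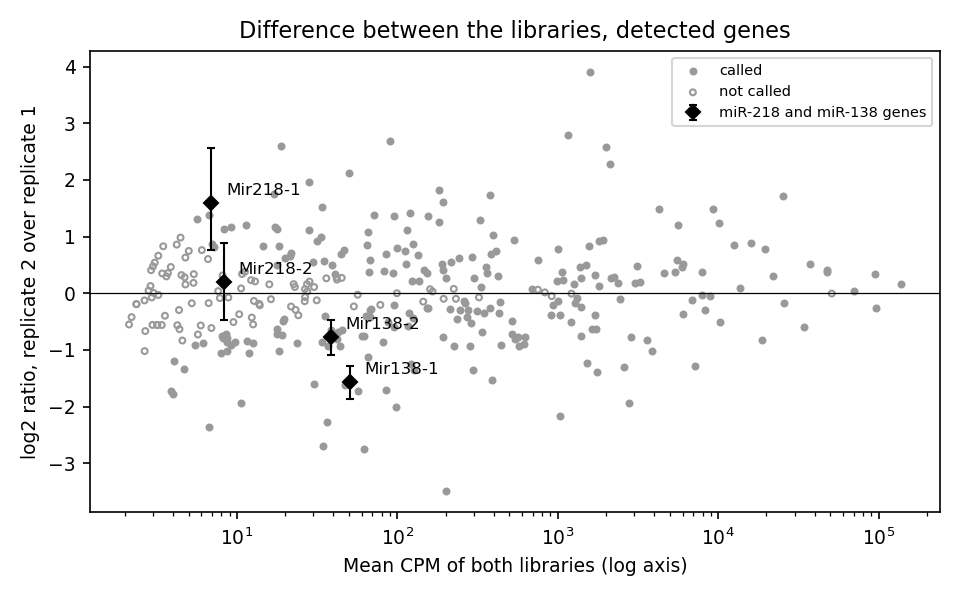
Log2 ratio of replicate 2 over replicate 1 against mean CPM on a log axis for the 340 genes tested, filled where called and open where not. Diamonds with exact 95% intervals mark the 4 genes: Mir218-1 at 1.59 and Mir218-2 at 0.19 lie above the line at 0, Mir138-2 at -0.78 and Mir138-1 at -1.56 below it.

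The balance of the families differed accordingly. The miR-138 genes held 313 counts and the miR-218 genes 117 in replicate 2, a ratio of 2.68 (exact 95% interval 2.16 to 3.34). In replicate 1 they held 483 and 45 counts, a ratio of 10.7 (exact 95% interval 7.90 to 14.9). The intervals do not overlap, and this ratio needs no scaling between libraries. It is a ratio of assigned reads, and whether reads of both families are equally assignable was not tested. Summed, the miR-138 genes had 49.6 CPM in replicate 2, against 128.9 CPM in replicate 1. The miR-218 genes had a sum of 18.6 CPM in replicate 2, against 12.01 CPM in replicate 1.

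Within each family the share of the copies in the assigned counts also differed between the libraries. Mir218-1 made up 54.7% of the miR-218 counts in replicate 2, with an exact 95% interval of 45.2% to 63.9%, against 31.1% in replicate 1, with one of 18.2% to 46.6%. The odds of a miR-218 count falling to Mir218-1 were 2.66 times as high in replicate 2 (exact conditional 95% interval 1.22 to 6.003). Mir138-1 made up 46.96% of the miR-138 counts in replicate 2, with an exact 95% interval of 41.3% to 52.7%, against 60.5% in replicate 1, with one of 55.9% to 64.8%. Its odds were 0.5796 times as high in replicate 2 (exact conditional 95% interval 0.43 to 0.78). In replicate 2 the interval of each share includes 50%, whereas in replicate 1 Mir218-2 and Mir138-1 held more of the assigned counts, beyond counting error. Whether reads of both copies of a pair are equally assignable, and equally so in both libraries, was not tested. The shares and odds may therefore not give the relative levels of the copies in the tissue.

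**Figure D4:**
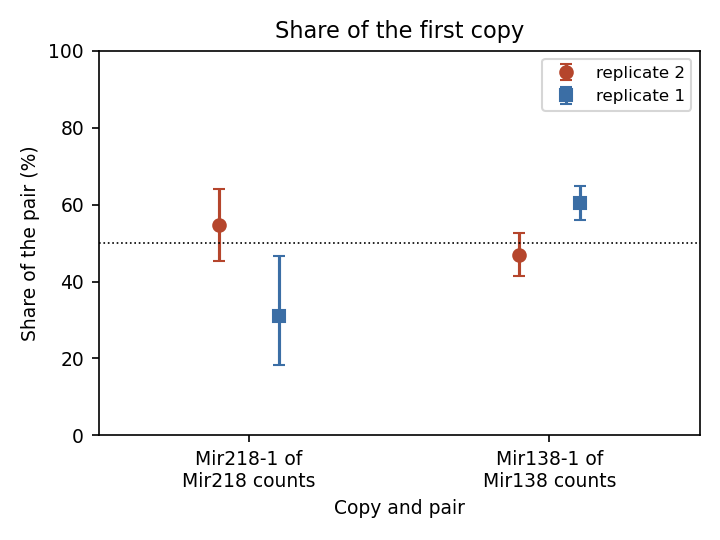
Share of the first copy in the assigned counts of its pair, in percent, with exact 95% intervals. Circles mark replicate 2, squares mark replicate 1 and the dotted line is at 50%. Mir218-1 was at 54.7% in replicate 2 and 31.1% in replicate 1, and Mir138-1 at 46.96% in replicate 2 and 60.5% in replicate 1.

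Other microRNAs with copies give a scale for this. In the RefSeq table, 37 pairs of counted genes share a mature strand that no further listed gene holds, and 16 of them, the miR-218 and miR-138 pairs included, had both genes past the filter. The log2 ratios of the copies were apart by 1.39 for miR-218 and 0.79 for miR-138. In the other 14 pairs the gap had a median of 0.35 and ran from 0.10 to 2.88; it was wider than that of miR-218 in 3 pairs and wider than that of miR-138 in 4. The copies of miR-218 and miR-138 were close in level, with mean CPM apart by 0.26 and 0.39 on the log2 scale, against a median of 1.08 (range 0.36 to 6.86) in the other 14 pairs. These are gaps between means over libraries in which the order of the copies by count differed, within counting error in replicate 2. The miR-218 copies were 0.27 apart in replicate 2 and 1.15 in replicate 1. The miR-138 copies were 0.18 apart in replicate 2 and 0.61 in replicate 1. The gene Mirlet7c-2 stands in 2 of the 14 other pairs. These are descriptions with no test, and the table does not hold every counted gene.

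**Figure D5:**
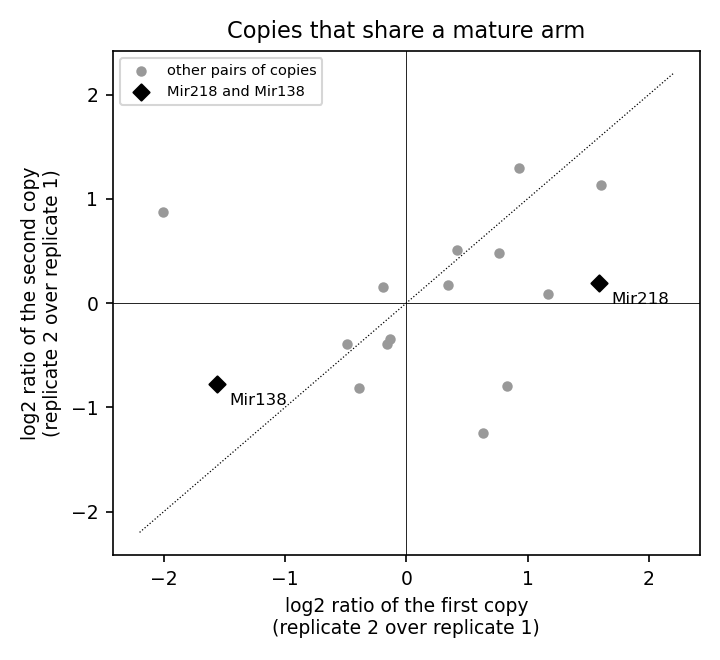
Log2 ratio of replicate 2 over replicate 1 of the second copy against that of the first copy, 1 point per pair of genes that share a mature strand; the dotted line marks equal ratios. The miR-218 pair (1.59 and 0.19) and the miR-138 pair (-1.56 and -0.78), shown as diamonds, have copies 1.39 and 0.79 apart.

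By kind of sequence the members belong to the genes with 1 shared and 1 own strand. Of the 56 counted genes with both strands listed of which some but not all are shared, 34 (60.7%) passed the filter, with a median mean level of 46.3 CPM among these. Mir138-1 lay above that median, and Mir138-2, Mir218-2 and Mir218-1 lay below it. Of the 553 genes with both strands listed and none shared, 37.4% passed it, with a median of 94.9 CPM. Of the 20 genes with both strands listed and shared, 2 passed it.

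The genes nearest to each member over the 2 libraries, by distance of log2(CPM + 1), were Mir582 and Mir1949 for Mir218-1 and Mir8114 and Mir6516 for Mir218-2. Mir34c and Mir449a were nearest to Mir138-1, with distances of 0.16 and 0.22, and Mir1249 and Mir92-2 to Mir138-2, with distances of 0.09 and 0.16. Likeness over 2 libraries says only that level and ratio are close.

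A list of 20 microRNA genes studied in heart development of mouse or zebrafish had a median level of 1472 CPM over all 20, above all 4 members. Its highest genes by mean were Mir126a of endothelium at 94759 ± 8207 CPM, Mir23b at 47720 ± 4937 CPM and Mir143 of smooth muscle at 47486 ± 5525 CPM (SD, n = 2). Its lowest were Mir19b-1, Mir19b-2 and Mir133a-2, whose counts were under 10 in at least 1 library. The levels may not be of equally assignable reads. The members, Mir19b-1 and Mir19b-2 have a strand shared with another gene, and Mir126a and Mir23b have none. Of the 17 genes of the list that passed the filter, 11 were higher and 4 lower in replicate 2 by the exact binomial test, with a median log2 ratio of 0.41. Over all 340 genes, 35.0% were called higher and 36.2% lower, and the median was -0.02. Those called lower, as the miR-138 genes were, are Mir208a, Mir92-1, Mir92-2 and Mir10b.

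Assigned counts of microRNAs that mark cell types differed between the libraries too, as did those of most genes. Over all 340 genes tested, 71.2% were called, 35.0% higher and 36.2% lower in replicate 2. Calls within a list are therefore no trait of cell type markers. The sums below are in CPM, on total counts, whereas the log2 ratios are TMM-scaled, which raises each of them by 0.17. The muscle list, in which all 7 genes had counts, held 12455 CPM in replicate 2 and 8318 CPM in replicate 1. Mir499, Mir208b and Mir208a held nearly all of both sums. How many reads of the Mir1a and Mir133a copies went unassigned was not tested. Of the 6 tested genes of the muscle list 3 were called higher in replicate 2 (Mir208b, Mir499 and Mir1a-2, log2 ratios 2.29, 1.21 and 1.37) and 1 lower (Mir208a, -1.31). The leukocyte list, with Mir142b of its 5 genes at 0, held 2192 CPM in replicate 2, against 1959 CPM in replicate 1. Mir155, which holds most of that sum, was called lower in replicate 2 (log2 ratio -0.09), and Mir142, Mir223 and Mir150 were called higher (1.27, 2.13 and 0.95). The erythroid list of 2 genes held 8704 CPM in replicate 2, against 9908 CPM in replicate 1; Mir451a, nearly all of it, was called lower (log2 ratio -0.05) and Mir144 higher (0.69). The 2 endothelial genes held 100563 CPM in replicate 2, against 88957 CPM in replicate 1, nearly all of it Mir126a. The 2 smooth muscle genes held 53313 CPM in replicate 2, against 44790 CPM in replicate 1, most of it Mir143. Mir126a, Mir143 and Mir145a were called higher in replicate 2 (log2 ratios 0.35, 0.41 and 0.84), and Mir126b did not pass the filter. The neural list of 10 genes was close to even on total counts, with 22.04 CPM in replicate 2 and 21.1 CPM in replicate 1. Mir124a-1, Mir124a-2, Mir124a-3 and Mir9-2 of that list were at 0 in both. Every listed strand of Mir9-1, Mir9-2, Mir9-3 and Mir129-1, and a strand of Mir129-2, is shared with another gene, so their reads may fit several positions. A low count of these genes therefore need not mean a low level. For the Mir124a genes this was not tested. The 3 tested genes of the neural list, Mir129-1, Mir129-2 and Mir137, had log2 ratios of -0.19, 0.16 and 0.21 and did not pass the exact test. Mir153 had 11 counts in replicate 2 and 1 count in replicate 1, and did not pass the filter. The part of these cells in the miR-218 and miR-138 differences was not tested.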

How the data were processed

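MicroRNA sequencing of 2 mouse heart libraries was used. The authors deposited unnormalized counts of reads for each microRNA gene, on mm10 with GENCODE M21 per the deposited text beside the tables; no source used here gives the aligner or the counter. Of the 3 count columns, the one for the strand of the gene was used, as inferred from the values. The 4 entries without a gene stayed out of all totals. All 2202 identifiers matched GENCODE M21, and 972 matched the RefSeq microRNA table.

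The filter kept genes that had 10 counts or more in each library, and these were tested with an exact binomial test against library sizes scaled by TMM (edgeR 4.0.16, R 4.3.3) over those genes, with Benjamini-Hochberg adjustment at 0.05. Against total counts, TMM shifted every log2 ratio by 0.17. Log2 ratios of single genes used a prior of 0.5 counts, and those of summed counts and the gaps in level used none. Intervals of the log2 ratios of single genes were computed in R, and the other intervals with SciPy 1.17.1. Alternatives were DESeq2 1.42.0 size factors, total counts, both strands, other filters, another denominator and leaving out a library. The test was checked on simulated counts that held counting error only, with no further spread between libraries. The limits on recovery and on false calls were applied with the known library sizes, not with TMM. Named genes are the 4 members, the 2 nearest genes to each, and the 3 highest and 3 lowest of the heart development list; the other genes of the lists and Mirlet7c-2 were named after their values were seen. Members and lists were chosen with earlier results of these data known.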

Additional observations from a re-analysis of the deposited data

How the results depend on the processing

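Mir218-1 stayed higher in replicate 2, and Mir138-1 and Mir138-2 lower, with adjusted p under 0.05 in the exact binomial test, under DESeq2 size factors, total counts, reads on both strands and both looser filters, and Mir218-2 stayed uncalled under all 5. With total counts the log2 ratios were 1.42, -1.74, -0.95 and 0.02 for Mir218-1, Mir138-1, Mir138-2 and Mir218-2, and the median of all genes was -0.19. The number of genes called was 242 and ran from 219 with both strands to 266 with at least 10 counts summed over the libraries. By direction, 119 were higher and 123 lower in replicate 2, against 97 and 146 with total counts. With all reads as the denominator the mean level was 2.67 CPM for Mir218-1, 3.31 for Mir218-2, 20.8 for Mir138-1 and 15.7 for Mir138-2, and with reads on both strands 9.56, 11.4, 69.1 and 52.9 CPM for the same genes, because the totals change while the counts do not. Leaving out a library leaves the value of the other: 23.3 to 77.9 CPM for Mir138-1 and 3.73 to 10.1 CPM for Mir218-1. With 14 to 64 counts per library, the miR-218 genes have the widest intervals of the log2 ratio. No paired analysis was possible because there is 1 group.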
